A study of Bos taurus with 24 samples.

Results

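Of the 24 sequenced Holstein cows, 12 were compared here by how far their blastocysts had developed on the day of scoring, with 7 cows of fast and 5 cows of slow kinetics. For the kinetic score, each blastocyst was classed as 1 (non-expanded), 2 (expanded) or 3 (hatching or hatched), and the labels give the mean over the blastocysts of each cow. The fast cows (Samples 2, 12, 16, 17, 19, 23 and 24) had a score of 1.60 or more and the slow cows (Samples 4, 7, 9, 10 and 18) a score of 1.25 or less. The 9 cows with scores from 1.29 to 1.50 were kept apart as intermediate cows, and the 2 cows with a score of 0 and Sample 8, which the study left out for its low share of uniquely mapped reads, entered neither group. In every cow the granulosa cells came from all antral follicles of both ovaries taken at slaughter, depleted of leukocytes with anti-CD45 beads and of erythrocytes by lysis, so that each library is a pool over the follicles of 1 cow. The cows were in the luteal phase and were not synchronised, and the labels name no agent or allele that separates the groups. The oocytes of 5 fast and 2 slow cows were inseminated with semen of bulls with a high Nordic Total Merit (NTM) index, while low-NTM bulls were used for 2 fast and 3 slow cows. The age and RNA integrity of each cow and the number of blastocysts behind each score were not used here, so the precision of a single score is unknown. Cows were sampled on several dates and a bull could serve more than 1 cow, and since neither the date nor the bull of a cow was used here, the tests treat the cows as independent.

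Granulosa cells are the somatic cells that line the follicle and surround the oocyte. They respond to follicle-stimulating hormone, convert androgens to oestradiol and pass nutrients and signals to the oocyte through gap junctions. After fertilisation and culture, a bovine blastocyst fills its cavity, expands and hatches from the zona pellucida, so a cow with many expanded or hatching blastocysts on a fixed day has a high kinetic score. The comparison asks whether the RNA of the granulosa cells, collected before insemination, differed between cows at the 2 ends of this score.

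The fast cows had a mean kinetic score of 1.71 ± 0.105 (SD, n = 7) and the slow cows 1.13 ± 0.125 (SD, n = 5), which follows from how they were chosen. The blastocyst rate was 36% in Sample 2, 30% in Sample 12, 70% in Sample 16, 71% in Sample 17, 44% in Sample 19, 57% in Sample 23 and 33% in Sample 24. In the slow cows it was 50% in Samples 4 and 7, 25% in Sample 10 and 20% in Samples 9 and 18. The groups overlapped, since 4 of the 7 fast cows (Samples 2, 12, 19 and 24) lay below Samples 4 and 7. The mean rate was 48.7% ± 17.3 (SD, n = 7) against 33.0% ± 15.7 (SD, n = 5), a difference of 15.7 percentage points that did not pass a two-sided exact permutation test over the 792 splits (p = 0.144, adjusted p = 0.288 over 2 scores).

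The morphology score, the mean quality class of the blastocysts, was 2.29 ± 0.303 (SD, n = 7) in the fast cows, with values from 2.00 to 2.75. In the slow cows it was 1.97 ± 0.627 (SD, n = 5), from 1.00 in Sample 9 to 2.67 in Sample 7. The difference of 0.319 was smaller than the spread of the slow cows (exact permutation test, two-sided, p = 0.323, adjusted p = 0.323). Without Sample 9 the difference was 0.0764 (exact permutation test, p = 0.77), and without Sample 7 it was 0.494 (exact permutation test, p = 0.109). Both scores had the higher mean in the fast cows, and neither difference passed its test.

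**Figure D1:**
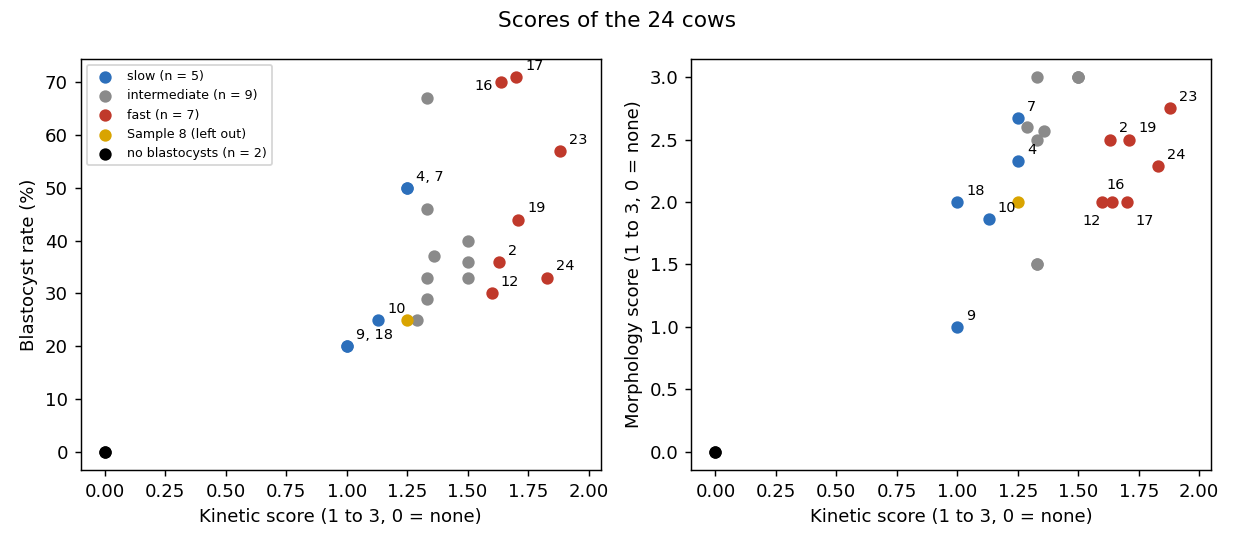
The kinetic score of each cow (horizontal axis, mean class) is plotted against its blastocyst rate (left, %) and its morphology score (right, mean class), with 1 point per cow and sample numbers for the fast and slow cows. The fast and slow cows are apart on the horizontal axis by choice and overlap on both vertical axes.

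Between 21488333 and 27073481 read pairs were counted on genes in 11 of the 12 libraries, and 15525201 in Sample 24. Sample 24 also had the most genes with a count, 21629, where the others had between 15559 and 16714. Of its genes, 2770 had no count in any of the other 11 libraries, while each of the other libraries had between 10 and 72 such genes. The share of its counts on genes below the low-count filter was 0.424%, against 0.0753% to 0.245% in the other libraries. The comparisons across genes are therefore given with and without this cow. The count lists name genes by Ensembl identifier only, and 0 of the 24616 identifiers matched the table of gene symbols. For this reason no symbol is given, the defining markers of granulosa, theca or blood cells could not be looked up to check the labelled cell type, and single genes are named for 2 genes in each direction only.

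The profiles of the 12 libraries overlapped between fast and slow cows. When principal components were taken of log2 cpm (counts scaled to the size of the library) over the 12171 genes with 1 cpm or more in at least 5 of the 12 libraries, 51.3% of the variance fell on the first component and 16.4% on the second. On the first component the slow cows lay between -34.5 and 22.4, inside the range of the fast cows from -81.9 (Sample 19) to 93.7 (Sample 12). The difference in mean score between the groups was 11.9 on the first component (two-sided exact permutation test, p = 0.694) and 19.4 on the second (exact permutation test, p = 0.25). Adjusted over the 8 library measures tested, these were 0.972 and 0.626.

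Most fast libraries resembled the rest of the set less than the slow libraries did. The median Pearson correlation of a library with the other 11 libraries was 0.920 in Sample 2, 0.900 in Sample 12, 0.929 in Sample 16, 0.953 in Sample 17, 0.889 in Sample 19, 0.950 in Sample 23 and 0.939 in Sample 24. In the slow cows it was 0.942 in Sample 4, 0.963 in Sample 7, 0.945 in Sample 9, 0.954 in Sample 10 and 0.951 in Sample 18. Of the 7 fast libraries, 5 lay below every slow library, and the other two lay within the slow range. The mean was 0.926 ± 0.0244 (SD, n = 7) against 0.951 ± 0.00816 (SD, n = 5), a difference of -0.0254 (two-sided exact permutation test, p = 0.0379), which did not pass adjustment over the 8 measures (adjusted p = 0.303). This measure was chosen after the components had been seen. The study reported that the first component of its own, larger set of libraries correlated with RNA integrity, which it then put into its models. RNA integrity values were not used here, so whether the components or this measure move with them in the 12 libraries was not tested. Without Sample 24 the unadjusted p was 0.0476 by the same exact permutation test.

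**Figure D2:**
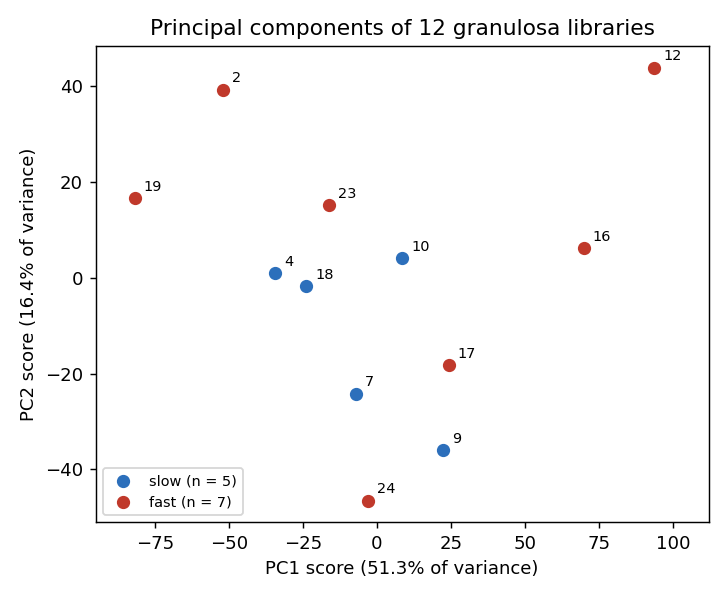
Scores of the 12 libraries on the first (horizontal) and second (vertical) principal component of log2 cpm, with 1 point per cow and its sample number, coloured by group. On each axis the slow cows lie inside the range of the fast cows.

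In the comparison across genes, edgeR's quasi-likelihood test with NTM class as covariate called no gene of 12171 at a false discovery rate (FDR) of 0.05 (0 genes, 0%), and the smallest FDR was 0.999. At an unadjusted p under 0.05 there were 294 genes (2.42% of those tested), of which 84 (0.69%) had higher and 210 (1.73%) lower fitted levels in the fast cows. An even spread of p-values would put 5% of the genes under this threshold, more than were found. The standard error of the log2 fold change had a median of 0.222, and the absolute log2 fold change a median of 0.145, so the typical error was larger than the typical difference. DESeq2's Wald test on the same counts called 3 genes at an FDR under 0.05 (smallest FDR 0.0102), all lower in the fast cows, and 345 genes at an unadjusted p under 0.05. limma voom with sample quality weights called 0 genes, with 825 genes at an unadjusted p under 0.05. The study itself related genes to kinetics at the same FDR threshold, in more cows and with scores adjusted for the bull. Its model held age, RNA integrity and date, and its genes could not be looked up here without symbols. In bulk RNA, fewer cells of a kind and less RNA per cell cannot be told apart, which holds for each difference given here.

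Leaving out Sample 24 moved the count at an unadjusted p under 0.05 further from 294 than leaving out any other cow. Without it, 845 genes (6.94%) had an unadjusted p under 0.05, 397 higher and 448 lower in the fast cows, and still none had an FDR under 0.05 in edgeR's test (0 genes, smallest FDR 0.702). Of the 294 genes found with all 12 cows, 192 (65.3%) were among them, and they made up 22.7% of the 845. DESeq2's Wald test then called 17 genes at an FDR under 0.05, 6 higher and 11 lower, and voom called 0 genes with 1522 at an unadjusted p under 0.05. When Sample 19 was left out, 546 genes had an unadjusted p under 0.05, and fewer were found without Sample 7 (111 genes) or Sample 9 (192 genes). Without Sample 18, 3 genes passed an FDR of 0.05 in edgeR's test, all lower in the fast cows, and they were the same 3 genes as in DESeq2's test on all 12 cows. Samples 7 and 24 thus moved the count in opposite directions, and 328 genes were found when both were left out.

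**Figure D3:**
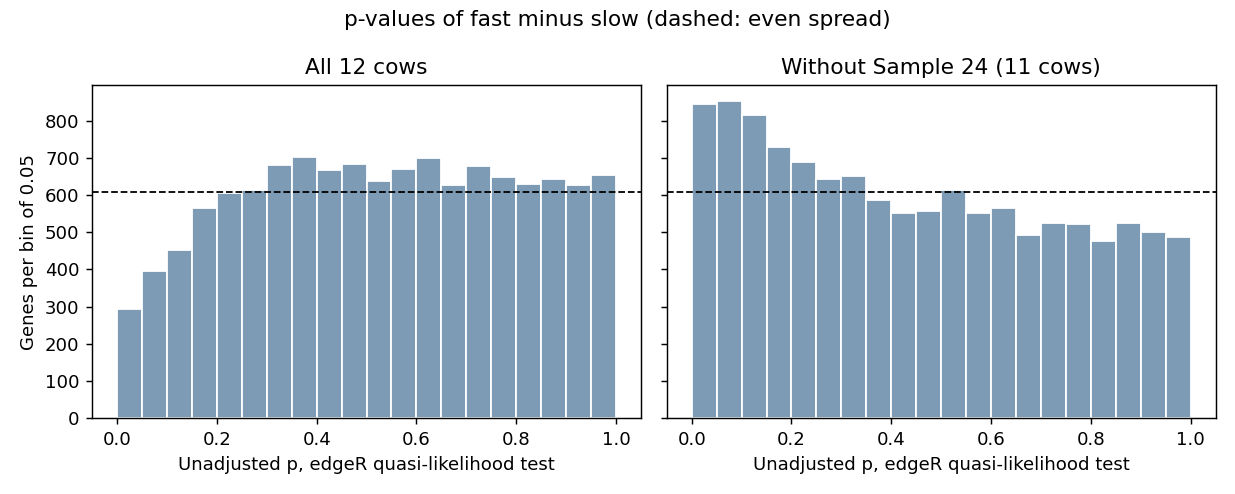
Number of genes (vertical axis) per bin of 0.05 of the unadjusted p-value (horizontal axis) for the 12 cows (left) and without Sample 24 (right), where the dashed line marks an even spread. With 12 cows the first bin holds 294 genes and lies below the line, and without Sample 24 it holds 845 and lies above it.

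**Figure D4:**
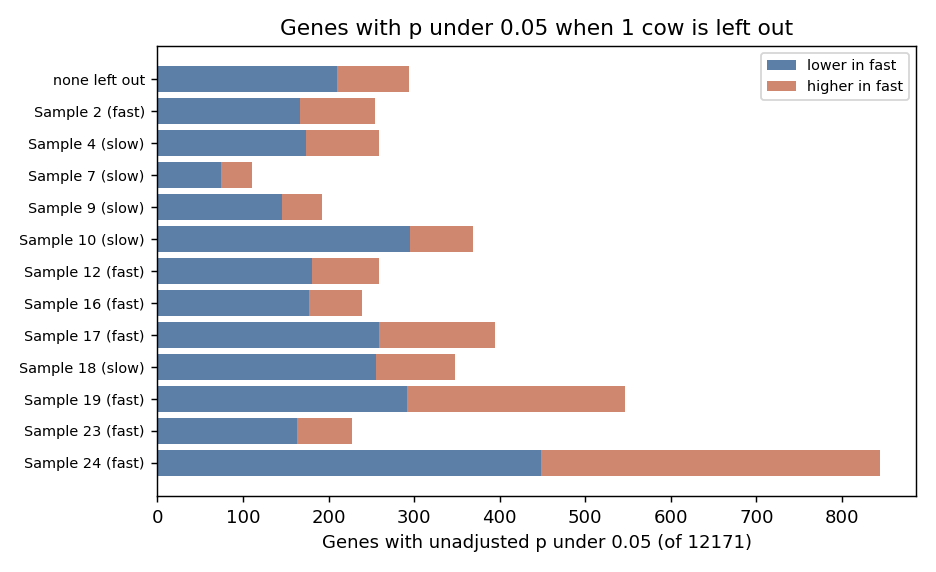
Number of genes with an unadjusted p under 0.05 (horizontal axis, stacked by direction) with all 12 cows and with each cow left out in turn (vertical axis). The counts run from 111 without Sample 7 to 845 without Sample 24.

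Among the genes lower in the fast cows, those with the smallest p-values were ENSBTAG00000045039 and ENSBTAG00000045235. ENSBTAG00000045039 had 13.8 TMM-scaled cpm in Sample 2, 19.5 in Sample 12, 15.8 in Sample 16, 19.7 in Sample 17, 10.3 in Sample 19, 16.4 in Sample 23 and 9.63 in Sample 24. In the slow cows it had 26.8 cpm in Sample 4, 40.4 in Sample 7, 22.3 in Sample 9, 19.5 in Sample 10 and 20.8 in Sample 18. The highest fast cow and the lowest slow cow met at about the same level, and Sample 7 stood well above the other slow cows. The log2 fold change was -1.01 (standard error 0.185, FDR = 0.999 in edgeR's test). It was -0.93 without Sample 24 (FDR = 0.702) and ran from -1.22 to -0.85 when each cow was left out. With an FDR of 0.0252, ENSBTAG00000045039 passed the threshold in the fit without Sample 18, and it was also among the 3 genes that DESeq2's Wald test called.

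ENSBTAG00000045235 followed nearly the same pattern, with a mean of 15.0 cpm ± 3.98 (SD, n = 7) in the fast cows and 27.1 cpm ± 10.5 (SD, n = 5) in the slow cows. Its values ran from 9.56 in Sample 19 to 19.5 in Sample 17, and from 19.3 in Sample 10 to 44.7 in Sample 7. The log2 fold change was -1.07 (standard error 0.203, FDR = 0.999 in edgeR's test), and -1.03 without Sample 24 (FDR = 0.702). Across the 21 fast, slow and intermediate cows, the counts of ENSBTAG00000045039 were between 0.75 and 1.12 times those of ENSBTAG00000045235. Why their counts ran so close was not tested, and the genes are not taken as separate pieces of evidence.

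Within the classes of bulls the fold changes are a description, since both genes were chosen for a small p with NTM class as covariate. In the cows with high-NTM bulls (5 fast and 2 slow), the log2 fold change was -0.84 for ENSBTAG00000045039 and -0.92 for ENSBTAG00000045235. In those with low-NTM bulls (2 fast and 3 slow) the values were -1.19 and -1.25. The fast cows with low-NTM bulls were Samples 19 and 24, which had the lowest levels of both genes. Sample 7, with the highest levels, was a slow cow with a high-NTM bull. Without Samples 7 and 24 the log2 fold changes over both classes were -0.70 and -0.74.

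Among the genes higher in the fast cows, ENSBTAG00000002025 had the smallest p-value. It had 32.4 cpm in Sample 2, 30.4 in Sample 12, 50.4 in Sample 16, 48.5 in Sample 17, 67.6 in Sample 19, 34.3 in Sample 23 and 43.9 in Sample 24. The slow cows had 26.2 cpm in Sample 4, 25.5 in Sample 7, 27.3 in Sample 9, 26.0 in Sample 10 and 33.6 in Sample 18. Among the slow cows, Sample 18 alone reached the levels of the fast cows, where it lay above Samples 2 and 12. The log2 fold change of ENSBTAG00000002025 was 0.71 (standard error 0.197, FDR = 0.999 in edgeR's test), and 0.75 without Sample 24 (FDR = 0.702). It was 0.41 in the cows with high-NTM bulls and 1.08 in those with low-NTM bulls.

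ENSBTAG00000014526 differed less, with 17.1 cpm ± 1.87 (SD, n = 7) in the fast cows and 13.4 cpm ± 0.926 (SD, n = 5) in the slow cows. Its values ran from 13.8 in Sample 17 to 19.7 in Sample 24 in the fast cows, and from 12.2 in Sample 10 to 14.5 in Sample 9 in the slow cows. Of the 7 fast cows, only Sample 17 lay inside the slow range. The log2 fold change of ENSBTAG00000014526 was 0.37 (standard error 0.114, FDR = 0.999 in edgeR's test), and 0.33 without Sample 24 (FDR = 0.702).

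The 9 intermediate cows, which neither group holds, cover a narrow range of kinetics. They therefore cannot settle whether these genes follow kinetics. ENSBTAG00000045039 ran from 12.9 to 28.9 cpm in them, with a median of 22.3, and the 3 cows at the top of their range of kinetics held both its lowest values (13.8 in Sample 21 and 12.9 in Sample 22) and one of its highest (28.4 in Sample 3). ENSBTAG00000002025 ran from 15.0 cpm in Sample 3 to 59.1 in Sample 20, a range that covered all 5 slow cows and all fast cows but Sample 19. Its slope on the kinetic score in these cows was negative, at -3.09 on the log2 scale per unit (standard error 2.45, FDR = 0.993 in edgeR's test), opposite to the difference between fast and slow cows. For ENSBTAG00000014526, ENSBTAG00000045039 and ENSBTAG00000045235 the slopes had the same direction as that difference, at 0.65, -2.11 and -1.89 per unit. Their unadjusted p-values in edgeR's test were 0.46, 0.22 and 0.38, each with an FDR of 0.993. For ENSBTAG00000002025 the unadjusted p was 0.24 in the same test.

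**Figure D5:**
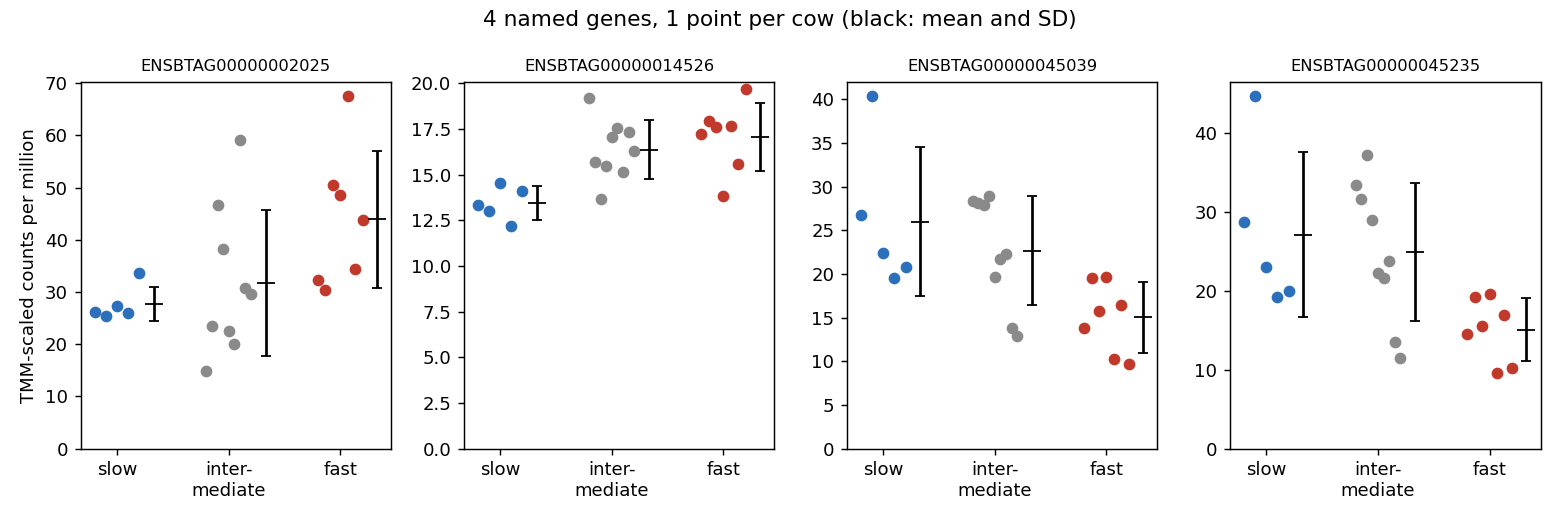
TMM-scaled cpm (vertical axis) of the 4 named genes in the 5 slow, 9 intermediate and 7 fast cows, with 1 point per cow and the mean and SD in black. The slow and fast cows are nearly apart in each panel, which follows from how the genes were chosen. The intermediate cows reach into the ranges of both groups. For ENSBTAG00000014526, Sample 6 (13.6 cpm) is the only intermediate cow in the slow range.

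A regression of all 12171 genes on the kinetic score within the intermediate cows called no gene by FDR in edgeR's test (0 genes, 0%), with 376 genes (3.09%) at an unadjusted p under 0.05. The sign of the slope was that of the difference between fast and slow cows for 58.5% of all tested genes. Among the 84 genes higher in the fast cows at an unadjusted p under 0.05 it was the same for 57 genes (67.9%), and among the 210 lower genes for 131 (62.4%). Of these 294 genes, 1 higher and 25 lower genes also had an unadjusted p under 0.05 and the same sign in the intermediate cows, whose scores cover a narrow range. Over all 12171 tested genes this held for 303.

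Few genes kept the groups fully apart. In 3 genes (0.0246% of 12171) all 7 fast cows lay above all 5 slow cows, and in 9 genes (0.0739%) all fast cows lay below. The gap between the nearest cows of the groups was at most 0.0669 on the log2 scale in the higher genes and at most 0.156 in the lower genes, where the gene with the widest gap had a mean of 46.4 cpm in the fast and 62.4 cpm in the slow cows. The means of the 9 lower genes in the slow cows ran from 4.18 to 859 cpm. Leaving out a cow can only loosen this rule when the scaling is kept, and the count of 12 genes became 29 without Sample 4, 19 without Sample 7, 23 without Sample 9, 56 without Sample 10, 45 without Sample 17, 72 without Sample 18, 98 without Sample 19 and 99 without Sample 24.

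The 20 genes with the highest mean level, from 2714 to 98012 cpm, were chosen by level and not by group. Of these, 18 had a lower fitted level in the fast cows and 2 a higher one, where 6907 of all 12171 tested genes had a higher one. The median log2 fold change of the 20 genes was -0.32, against 0.0351 over all tested genes. None of the 20 had an unadjusted p under 0.05 in edgeR's test (0 genes), and 4 had one, in the same direction, without Sample 24, where 839 of all 12171 genes did. The fitted direction was that of all 12 cows in both classes of bulls for 13 of them, and for 36.8% of all tested genes. The 10 genes with the most counts in each library come from the same data, so their share of the counts is not a separate observation. They held 29.9% ± 6.02 (SD, n = 7) of the counts of a fast cow, from 20.9% in Sample 19 to 37.4% in Sample 24. In the slow cows this share was 35.1% ± 2.68 (SD, n = 5), from 31.7% to 37.7%. The groups overlapped in this share, and by exact permutation, two-sided, the difference did not pass (p = 0.0859, adjusted p = 0.343 over the 8 library measures). Without Sample 24 the unadjusted p was 0.0346 by the same exact permutation test, with a mean of 28.7% in the 6 remaining fast cows.

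In part of the genes with a large fitted difference, 1 cow held over 50% of the summed level of its group. A log2 fold change of 1 or more was fitted for 166 genes with higher and 46 genes with lower levels in the fast cows, and of these 7 and 23 had an unadjusted p under 0.05, where 2.42% of all tested genes did. A large fold and a small p come from the same fit, so nothing is read from these counts. In 52 of the 166 higher genes, 1 fast cow held over 50% of the summed cpm of the 7 fast cows, and this was Sample 2 in 37 genes, Sample 19 in 14 genes and Sample 24 in 1 gene. Among the 46 lower genes, 1 slow cow held over this share in 7 genes, divided over Samples 7, 9, 10 and 18. The share of such genes among all tested genes was not computed. These genes were chosen for a large fold, which 1 high cow can give, and the groups differ in size. The counts of the higher and lower genes are therefore a description and are not compared.

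The 10 genes with the smallest p-values in the lower direction had log2 fold changes from -1.26 to -0.48 and mean levels from 4.68 to 1179 cpm. Taken as the median of each cow's difference from the mean of 21 cows on the log2 scale, these 10 genes were lowest in Sample 24 (-0.89) and Sample 19 (-0.76) and highest in Sample 7 (0.94), while the other fast cows lay between -0.17 and -0.031 and the other slow cows between 0.12 and 0.23. The genes were picked for this contrast, so the order of the groups is a description. The intermediate cows, which played no part in the choice, ran from -0.53 in Sample 22 to 0.60 in Sample 11. In these 9 cows the Spearman correlation between pairs of the 10 genes had a median of 0.233 over 45 pairs and ran from -0.80 to 0.967, where the pairs among 3043 tested genes, taken at even steps, gave a median of 0 and a 90th percentile of 0.55. The pairs include ENSBTAG00000045039 with ENSBTAG00000045235 (0.833), whose counts ran close together. For the 10 genes in the higher direction, whose log2 fold changes ran from 0.37 to 3.35, the median was -0.10. The points of each correlation share the scaling of the libraries.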

How the data were processed

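Granulosa cells of 24 cows were sequenced by the authors with a stranded total RNA kit. The authors deposited raw counts of read pairs per Ensembl gene, made with cutadapt, PRINSEQ, STAR on UMD3.1 and HTSeq-count in reverse-strand mode, with no normalization. The 24615 genes listed for all cows were read, genes with 1 cpm or more in at least 5 of the 12 libraries were kept (12171), and counts were TMM-scaled before the quasi-likelihood test of edgeR 4.0.16 under R 4.3.3 (Benjamini-Hochberg FDR threshold 0.05). The NTM class was the covariate. The study took the effect of the bull out of the scores and put age, RIN and date into its expression model. None of these was used here, and the groups rest on the scores in the labels, not adjusted for the bull. Log2 cpm used a prior count of 2, and printed cpm were scaled over 21 cows. Standard errors given with edgeR's test are the absolute log2 fold change divided by the square root of its F statistic. DESeq2 1.42.0 and limma 3.58.1 were alternatives. Exact permutation tests used scipy 1.17.1 in Python 3.11.15. The fits were tested on simulated data. The depth, from 15525201 to 27073481 counts per library, limits genes of low level most.

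The groups and gene lists were chosen with earlier results of these data known. The pathway and marker lists could not be applied, since 0 of 24616 identifiers matched a symbol. Named genes are the 2 in each direction with the smallest p among genes that kept their direction whichever cow was left out. The parts of the rule that need gene symbols could not be applied. No sequence or coordinate is given, since none was used here. Each cow is 1 library, so n counts cows.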

Additional observations from a re-analysis of the deposited data

Results flagged for a closer look

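Among 38 sets of values examined for a cow that stands apart from its group, 4 held one. Chance gives about 1 in 20 sets, but Sample 24 was known to stand apart in its genes with a count before these sets were examined, so that value is not set against chance. Sample 24 had 21629 genes with a count, and the next of the 7 fast cows had 16651. In the 5 slow cows, ENSBTAG00000002025 had 33.6 cpm in Sample 18 and 27.3 cpm in the next cow. In the 9 intermediate cows, Sample 20 had a blastocyst rate of 67%, with 46% in the next cow, and 17771 genes with a count, with 16458 in the next cow.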

How the results depend on the processing

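The count of genes with an FDR under 0.05 stayed at 0 in edgeR's test under the alternatives tried, except for 3 genes without Sample 18. It was 3 genes in DESeq2's Wald test with 12 cows and 17 genes in that test without Sample 24. The count of 294 genes with an unadjusted p under 0.05 ran from 111 (without Sample 7) to 845 (without Sample 24) when 1 cow was left out. It was 825 with limma voom, 780 with no low-count filter (22583 genes tested), 542 with the first principal component added to the covariates, 773 in the cows with high-NTM bulls, 523 in those with low-NTM bulls and 194 with kinetics as a number in the 12 cows. It was 197 with Sample 8 among the slow cows. Without Sample 24, 842 genes were found when the low-count filter was recomputed, 1076 in DESeq2's Wald test, 1522 with limma voom and 1141 with no covariate. With no low-count filter the median log2 fold change of all genes was 0.157, against 0.0351, and 511 of the 780 genes were higher in the fast cows. These alternatives without Sample 24 and the one without Samples 7 and 24 were chosen after the data were seen. The cause of these moves was not tested.

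The number of genes whose groups did not overlap, 12, was 12 with DESeq2 size factors, 8 with Sample 8 among the slow cows, and from 14 to 99 when 1 cow was left out. The fold changes of the 4 named genes kept their sign in the fits of fast against slow cows, which for the fits that leave out 1 cow follows from how the genes were chosen, and ENSBTAG00000002025 had the opposite sign in the intermediate cows. Those lower in the fast cows passed an FDR of 0.05 in DESeq2's Wald test, with and without Sample 24, and in edgeR's test without Sample 18. The difference in blastocyst rate ran from 12.0 to 20.0 percentage points and that in morphology from 0.0764 to 0.494 when 1 cow was left out, with no exact permutation p under 0.05. The difference in median correlation ran from -0.0332 to -0.0204, and its unadjusted exact permutation p was over 0.05 without Sample 2, 7, 10, 12, 16 or 19 (p from 0.0519 to 0.0848). The interaction of NTM class and group called 0 genes in edgeR's test (smallest FDR 0.426). At an unadjusted p under 0.05 there were 1412 genes (11.6% of those tested), against 2.42% in the main fit. Of the 1412, 920 had a positive and 492 a negative coefficient, and 2 of the 4 cells held 2 cows. The main fit takes the difference between groups to be the same in both classes of bulls. No paired analysis was possible because the labels give each cow its own number and the groups share none, and the dates and bulls that cows may share were not used here.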

Other observations

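Many identifiers among the genes with the smallest p-values in the lower direction had neighbouring numbers, which is given as a description with no test. Of the 12171 tested genes, 421 (3.46%) had an identifier number from 42000 to 46000, a range chosen because such genes were seen in it, and 8 of the 10 genes with the smallest p-values in the lower direction lay in it, among them ENSBTAG00000045039 and ENSBTAG00000045235, while none of the 10 in the higher direction did. In this range 45 genes (10.7%) were lower in the fast cows at an unadjusted p under 0.05 in edgeR's test, against 1.4% of the other genes, and 2 were higher. The median log2 fold change in the range was -0.24, against 0.0398 in the other genes. It was -0.28 against 0.0553 without Sample 24 and -0.13 against 0.0263 without Sample 7, where 22 genes of the range were still lower. Within single cows, the median difference of these genes from the mean of 21 cows was lowest in Sample 19 (-0.48) and highest in Sample 7 (0.38), and the other fast cows, from -0.079 to 0.090, overlapped with the other slow cows, from -0.093 to 0.14. The kind of gene behind these numbers was not looked up here.

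Of the 166 genes with a log2 fold change of 1 or more in the higher direction, 144 (86.8%) had a slope of the same sign in the intermediate cows, where 58.5% of all tested genes had. For the 46 genes in the lower direction this was 21 genes (45.7%). These shares were not tested, and genes that vary together are not independent.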
